A study of Homo sapiens with 7 samples.

Results

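MYC and the proteins that share its partner MAX were followed at the RNA level in a melanoma line in which the long non-coding RNA GRASLND was lowered. The members were taken by gene symbol, namely MYC, MYCN, MYCL, MAX, MXI1, MXD1, MXD4, MNT, MGA and MLX. Of these 10 genes, 9 had a row among the 21305 genes of the table, and MYCN was not analysed here. All 9 had a mean of at least 10 normalized counts over the libraries and were tested.

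The cells were 501Mel, a human melanoma line of the differentiated, pigment-cell kind, transduced as stable pools with a lentiviral vector that makes a short hairpin RNA only when doxycycline is given. A short hairpin RNA is processed by the cell into a guide that lowers a matching transcript. The 7 libraries comprised 3 controls, whose hairpin matches lacZ of bacteria (shlacZ), 2 in which GRASLND was targeted by hairpin sh4 and 2 in which it was targeted by hairpin sh8. All 7, control included, received doxycycline, for 3 days according to the methods of the study, and no library without doxycycline was analysed here. Which of the hairpin names of the study stands for sh4 and which for sh8 was not stated, and the labels do not say whether libraries of a group came from separate cultures. The methods speak of independent biological replicates for cell-based assays in general, without naming the sequencing. If the libraries were not separate cultures, the p-values measure only technical spread.

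MYC is a transcription factor of the basic helix-loop-helix leucine zipper class. It binds DNA only as a dimer with MAX, at E-boxes whose commonest form is the palindrome CACGTG, and raises genes of ribosome assembly, nucleotide synthesis, amino acid uptake and cell growth. MXD1, MXI1, MXD4, MNT and MGA also pair with MAX at the same sites but recruit repressors, so the make-up of the pool of MAX dimers bears on the output of MYC target genes. MLX is a paralogue of MAX that joins MLXIP or MLXIPL and some of the MXD proteins. In many tissues MYC is high in dividing cells and MXD proteins are high in cells that leave the cycle.

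The E-box was searched as CACGTG, which reads the same on both strands, in RefSeq promoters on GRCh38.p14, each from 250 bases before to 50 bases after a gene's start. Of 27305 promoters, 7.43% held the motif, and of the 10469 promoters of tested genes 10.1% did. A RefSeq promoter was matched for 8 of the 9 measured members, all but MYC, and 3 of the 8 held the motif. These 3 are printed, 5′ to 3′ on the strand of the gene and with the E-box in capitals, because MXD4 is the member with the largest rise and MNT and MLX let it be compared with members that did not pass a test. MXD4 lies on the minus strand (chr4:2262330-2262359), MNT on the minus strand (chr17:2401236-2401265) and MLX on the plus strand (chr17:42567038-42567067).
MXD4: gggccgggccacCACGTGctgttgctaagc
MNT: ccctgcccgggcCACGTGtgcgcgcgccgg
MLX: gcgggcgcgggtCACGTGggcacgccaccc
The motif begins 238 bases before the start of MXD4, 193 before that of MNT and 50 before that of MLX. A match of letters is a description and not a binding site.

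Depth, taken from whole reads recovered from the normalized counts, ranged from 13337317 to 22855232 reads per library. GRASLND itself had 309, 330 and 290 normalized counts in the shlacZ libraries, 175 and 131 with sh4, and 227 and 163 with sh8. All 4 knockdown libraries lay below all 3 controls. On the log2(normalized count + 1) scale used for every difference here, it fell by 0.85 in both hairpins together (SE 0.19, limma adjusted p = 0.0402; exact permutation test over 35 divisions of the libraries, two-sided, p = 0.0571, the smallest possible p being 0.0286). It fell by 1.02 with sh4 (adjusted p = 0.00662), and the value with sh8 was -0.68 (adjusted p = 0.110). The call in both together was lost in every fit without 1 library except that without sh8 1 (adjusted p from 0.0636 to 0.182), and the sh4 call without sh4 2 (adjusted p = 0.0772). Pigment-cell markers were present in every library (12 of 12 in the table), none of 5 leukocyte markers had a row, and the summed fibroblast and keratinocyte markers, each with 2 of 5 genes in the table, lay between 5.22 and 19.4 normalized counts. The first shlacZ library set some of the counts below, and values without it are given there.

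MYC RNA was much lower with sh4 and not detectably changed with sh8, MXD4 was higher with both hairpins, MXI1 was lower with sh4, and MXD1 was higher with sh8. The plot of members by library shows these patterns beside the members that moved little. A gene passed when its limma p, Benjamini-Hochberg adjusted over all 15420 genes tested, was under 0.05. By this rule 22.5% of all genes passed with sh4 against shlacZ (10.5% higher and 11.9% lower), and 4 of the 9 members did, MYC, MXI1 and MAX being lower and MXD4 higher. With sh8 against shlacZ the background was 2.92% (1.38% higher, 1.54% lower), and 2 members passed, MXD1 and MXD4, both higher. Between the hairpins it was 7.0% (3.67% higher in sh4, 3.33% lower), and 1 member, MYC, passed.

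**Figure D1:**
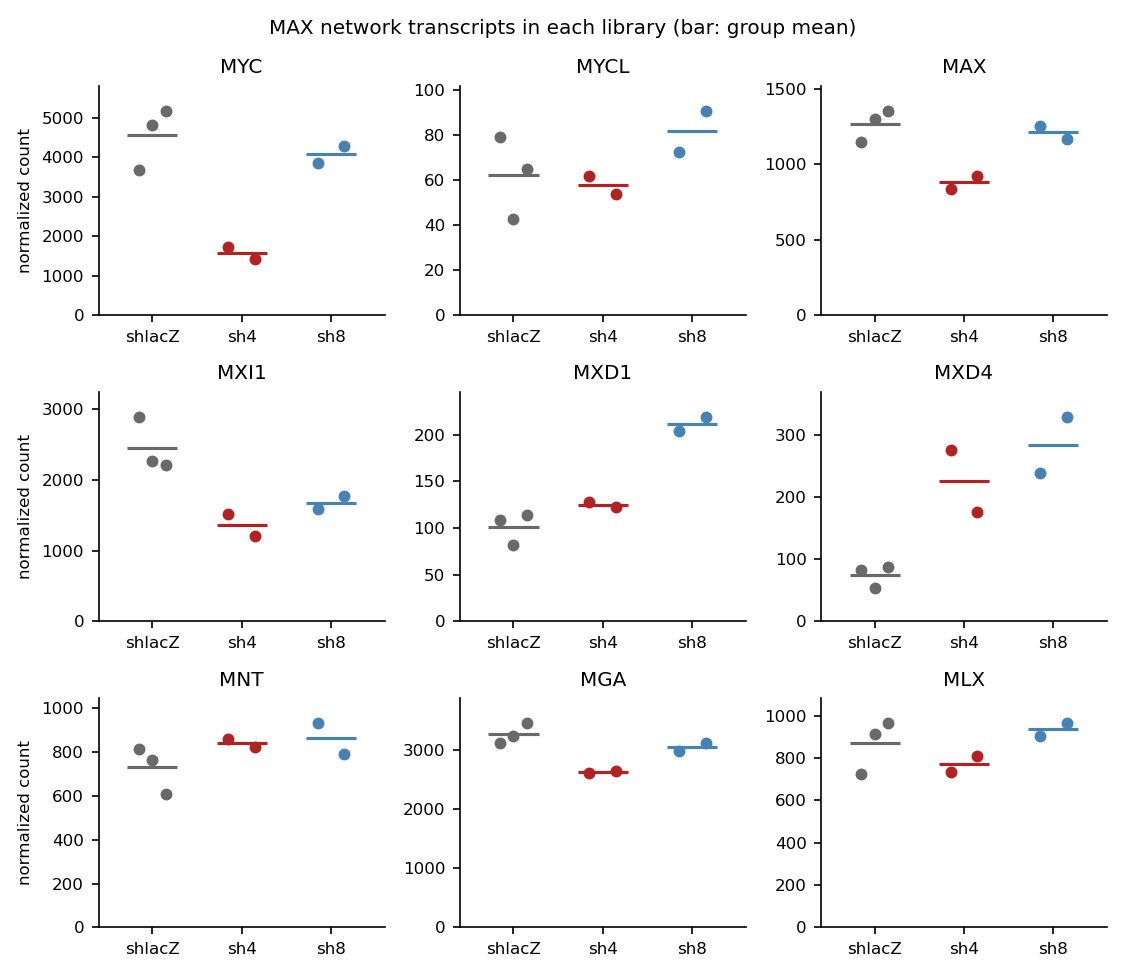
Normalized count (linear axis from 0, a separate scale for each gene) of the 9 measured members in each of the 7 libraries, with a point per library and a bar at the group mean (shlacZ n = 3, sh4 n = 2, sh8 n = 2). MYC sits at 1437 and 1740 with sh4 against 3679 to 5178 in shlacZ, whereas MXD4 sits at 175 to 329 with either hairpin against 53.4 to 87.0 in shlacZ.

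MYC (ENSG00000136997, hg38 chromosome 8, from 127735434 to 127742951, plus strand) had 3679, 4823 and 5178 normalized counts in the shlacZ libraries. With sh4 it had 1740 and 1437, and with sh8 3857 and 4289. Both sh4 libraries lay far below every other library, whereas the sh8 libraries lay within the range of the controls. The group means were 4560 ± 783 (SD, n = 3) for shlacZ, 1589 ± 214 (SD, n = 2) for sh4 and 4073 ± 306 (SD, n = 2) for sh8. With sh4 MYC fell to 34.8% of control, a log2 difference of -1.51 (SE 0.16, limma adjusted p = 0.000287). With sh8 the difference was -0.15 (95% interval -0.51 to 0.21, adjusted p = 0.663), an interval that holds a moderate fall as well as a small rise. The difference between the hairpins was itself tested, and MYC was lower in sh4 than in sh8 by -1.36 (95% interval -1.75 to -0.97, adjusted p = 0.00277). In bulk RNA, less MYC RNA in each cell and fewer cells with MYC RNA cannot be told apart.

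Because the hairpins differed so widely, the comparison of both together gave -0.83 for MYC (SE 0.36, adjusted p = 0.189), a value that describes neither hairpin. The summed level of the 12 pigment-cell markers was 149036 to 163168 normalized counts in shlacZ, 64374 to 70295 with sh4 and 114674 to 117699 with sh8. It lay below every control with sh4, like MYC, and also with sh8, unlike MYC. With sh4 8 of the 12 markers passed as lower, beside 11.9% of all genes, and 3 had values above 0 that did not pass. With sh8 none of the 12 passed, and 3 had values above 0. Between the hairpins 8 of the 12 passed as lower in sh4, beside 3.33% of all genes. The part of these markers in the values of MYC was not tested. CASC11, an antisense gene that overlaps MYC, had at most 3.64 normalized counts in any library.

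MYCL (ENSG00000116990), the family member best known from small cell lung cancer, was scarce. It had 79.5, 42.9 and 65.2 normalized counts in shlacZ, 62.1 and 53.7 with sh4, and 72.5 and 91.0 with sh8. The groups sh4 and sh8 each overlapped the controls, and neither difference passed (log2 -0.07, adjusted p = 0.900, with sh4, and 0.42, adjusted p = 0.506, with sh8). The 95% interval with sh4 was -0.74 to 0.60, at most 100 reads were counted in any library, and the sign with sh4 turned under another scaling.

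MAX (ENSG00000125952, chromosome 14, from 65006174 to 65102695, minus strand), the shared partner, was also lower with sh4. It had 1146, 1299 and 1355 normalized counts in shlacZ, 837 and 922 with sh4, and 1255 and 1170 with sh8. The sh4 libraries lay below all others, and the sh8 libraries lay among the controls. MAX fell with sh4 by 0.52 on the log2 scale (SE 0.13, adjusted p = 0.0156), to 69.5% of control, and the value with sh8 was -0.06 (95% interval -0.34 to 0.22, adjusted p = 0.846). The fall with sh4 did not pass once any 1 of shlacZ 2, shlacZ 3, sh4 1 or sh4 2 was left out (adjusted p from 0.0520 to 0.121). FNTB, which overlaps MAX on the other strand, had a log2 value of 0.58 with sh4 (adjusted p = 0.0643), the opposite sign. The strand setting of the authors' counting was not given in the sources used here, so reads from such overlaps may be shared.

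MXI1 (ENSG00000119950, chromosome 10, from 110207605 to 110287365, plus strand) encodes the MXD repressor also called MXD2. It had 2899, 2263 and 2212 normalized counts in shlacZ, 1513 and 1205 with sh4, and 1590 and 1771 with sh8. Every knockdown library lay below every control. MXI1 fell with sh4 by 0.85 (SE 0.16, adjusted p = 0.00423), and the value with sh8 was -0.54 (95% interval -0.89 to -0.19, adjusted p = 0.0977). The fall with sh4 did not pass without sh4 2 (adjusted p = 0.0567). With both hairpins together MXI1 fell by 0.70 (SE 0.16, adjusted p = 0.0383), a call lost in most fits that left out a library, for example without shlacZ 1 (-0.57, adjusted p = 0.0713). The annotation holds 38 transcripts of MXI1, which the gene-level table does not separate.

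MXD4 (ENSG00000123933, chromosome 4, from 2247432 to 2262109, minus strand), another repressor of the MXD group, moved the other way. It had 82.6, 53.4 and 87.0 normalized counts in shlacZ, 276 and 175 with sh4, and 239 and 329 with sh8. The lowest knockdown library had more MXD4 than the highest control, with both hairpins. MXD4 rose by 1.58 with sh4 (SE 0.29, adjusted p = 0.00400), to 303% of control, and by 1.93 with sh8 (SE 0.29, adjusted p = 0.00831), to 382%. Between the hairpins the difference was -0.35 (95% interval -1.05 to 0.35, adjusted p = 0.571), and in both together MXD4 rose by 1.76 (SE 0.26, adjusted p = 0.00918). Single calls rested on 1 library: without sh4 1 the sh4 value was 1.26 (adjusted p = 0.0588), without sh8 2 the sh8 value was 1.70 (adjusted p = 0.121; 0.0677 with all libraries but no variance trend), and without shlacZ 2 the value for both was 1.54 (adjusted p = 0.0536).

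MXD1 (ENSG00000059728), the first-described MXD repressor and a marker of myeloid differentiation, was scarce but countable. It had 108, 81.7 and 114 normalized counts in shlacZ, 128 and 122 with sh4, and 204 and 219 with sh8. The sh8 libraries lay above all others, and the sh4 libraries lay just above the controls. MXD1 rose with sh8 by 1.07 (SE 0.21, adjusted p = 0.0268), to 209% of control, and its value with sh4 was 0.31 (95% interval -0.15 to 0.78, adjusted p = 0.317). The difference between the hairpins, -0.76, did not pass (adjusted p = 0.0796), so a rise confined to sh8 is not shown. The sh8 call was lost when any library other than shlacZ 1 was left out (adjusted p from 0.0525 to 0.217), and also without the variance trend (adjusted p = 0.0694). SNRNP27, which overlaps MXD1 on the same strand, had a log2 value of -0.16 with sh8 (adjusted p = 0.617).

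MNT, MGA and MLX, which are the larger or more distant members of the network, did not pass in any of the comparisons. MNT (ENSG00000070444), a repressor found in most cells, had 814, 765 and 609 normalized counts in shlacZ, 859 and 821 with sh4, and 933 and 792 with sh8, with log2 values of 0.21 (adjusted p = 0.355) and 0.25 (adjusted p = 0.437). MGA (ENSG00000174197), a very large protein that joins MAX to a polycomb complex, had 3125, 3248 and 3473 in shlacZ, 2612 and 2646 with sh4, and 2996 and 3133 with sh8. Both sh4 libraries lay below all other libraries for MGA, with a log2 value of -0.32 (95% interval -0.56 to -0.08, adjusted p = 0.0572), and this value passed when shlacZ 1 was left out (-0.35, adjusted p = 0.0290).

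MLX (ENSG00000108788) had 728, 915 and 967 normalized counts in shlacZ, 733 and 811 with sh4, and 904 and 968 with sh8. The first control lay lowest, below both sh4 libraries, and the values of -0.16 with sh4 (adjusted p = 0.471) and 0.12 with sh8 (adjusted p = 0.722) were within that spread. PSMC3IP, which overlaps MLX on the other strand, fell with sh4 by 0.49 (adjusted p = 0.0494), a call that was lost in 13 of 17 alternative fits (adjusted p up to 0.194). Outside the named members, MXD3, a repressor of the MXD group seen in dividing cells, had 45.4 to 57.6 normalized counts in shlacZ, 119 and 74.6 with sh4, and 77.8 and 71.0 with sh8, and did not pass (0.81, adjusted p = 0.0582, with sh4). MLXIP, a partner of MLX that responds to glucose, had values of 0.01 with sh4 (adjusted p = 0.959) and 0.27 with sh8 (adjusted p = 0.252). MLXIPL had at most 3.95 normalized counts and was below the minimum for testing.

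**Figure D2:**
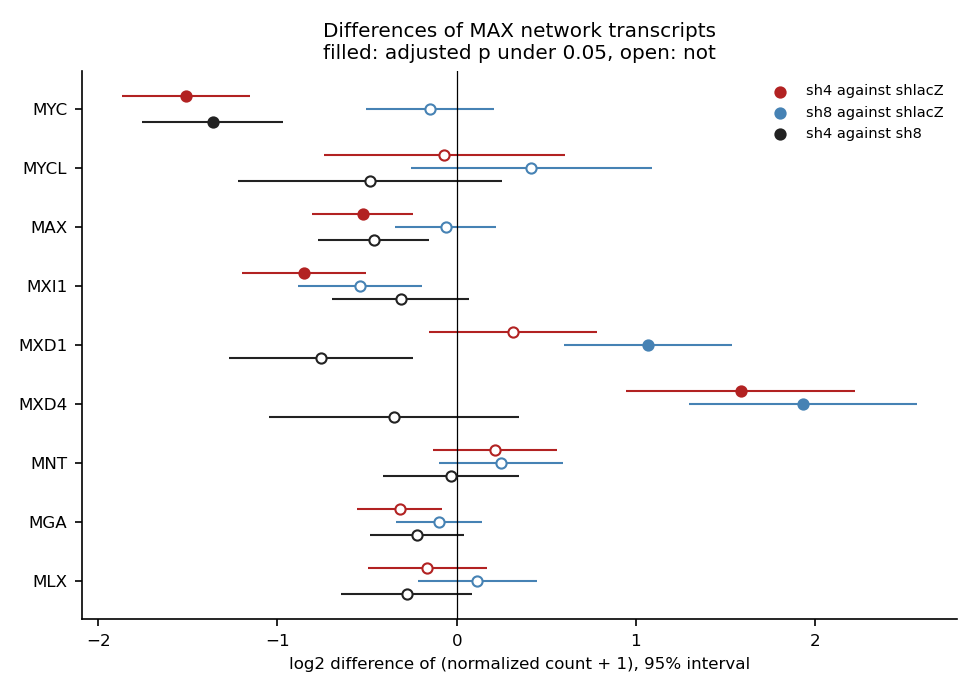
Difference in log2(normalized count + 1) for the 9 measured members, with 95% intervals from the limma fit, for sh4 against shlacZ, sh8 against shlacZ and sh4 against sh8. Filled points had an adjusted p under 0.05. MYC lies at -1.51 with sh4 and -0.15 with sh8, and MXD4 at 1.58 and 1.93.

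Whether the libraries of 2 groups overlapped was also counted. With all 4 knockdown libraries against the 3 controls, 3 of the 9 members had groups that did not overlap, MXD4, MXD1 and MXI1, against 21.2% of all genes. For sh4 against shlacZ 7 of 9 did, against 50.6%, for sh8 against shlacZ 3 of 9, against 34.4%, and for sh4 against sh8 7 of 9, against 54.2%. By the test of both hairpins together 2 members passed, MXD4 higher and MXI1 lower, against 4.61% of all genes (2.55% higher, 2.06% lower). That comparison and those of each hairpin share the same control libraries.

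Levels of different genes were compared as normalized counts per kilobase of the canonical transcript. In shlacZ the order was MYC with 1226 ± 210, MXI1 with 708 ± 110, MAX with 630 ± 54.0, MLX with 369 ± 53.4, MGA with 269 ± 14.5, MNT with 148 ± 21.8, MXD4 with 19.2 ± 4.71, MXD1 with 18.3 ± 3.11 and MYCL with 17.8 ± 5.23 per kilobase (SD, n = 3). MXI1 and MAX overlapped in that order, as did MXD4, MXD1 and MYCL, while MYC lay above all the rest. With sh4 the level of MYC by this length was 427 per kilobase, that of MAX 438 and that of MXI1 392, and with sh8 MYC was at 1095 against 603 for MAX. The order below MYC depended on the length used. With all exons of a gene merged, MAX (202) and MLX (204) were level in shlacZ. By merged length MYC stayed above MAX in each group, at 746 in shlacZ, 260 with sh4, where MAX was at 141 and MXI1 at 230, and 667 with sh8. The mean ratio of MYC to MAX with sh4 was 0.983 by canonical and 1.86 by merged length, so no rank of MYC against MAX with sh4 is given.

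The balance of activator to repressor transcripts was then described without a test, as MYC and MYCL summed per kilobase over MXD1, MXI1, MXD4 and MNT summed. It was 0.971, 1.56 and 1.75 in the shlacZ libraries, 0.689 and 0.691 with sh4, and 1.42 and 1.48 with sh8. The sh4 libraries lay below every other library, and the sh8 libraries lay inside the wide range of the controls. MXD3, outside the named members, was left out of the repressor sum and of the shares that follow. It had mean normalized counts of 53.5 in shlacZ, 96.6 with sh4 and 74.4 with sh8. Its canonical transcript has 1067 bases, against 3871 for MXD4, so shares with MXD3 included would be different. Of MXI1, MXD1 and MXD4, MXI1 made up most in every library. Its share of them per kilobase was 93.7% to 95.8% in shlacZ, 82.2% to 83.7% with sh4 and 80.4% to 82.3% with sh8. The share of MXD4 was 2.03% to 3.30% in shlacZ, 10.9% to 13.4% with sh4 and 11.1% to 13.4% with sh8, so the hairpins overlapped in this share while they did not overlap in MYC. These are RNA levels, and protein was not measured in these libraries.

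**Figure D3:**
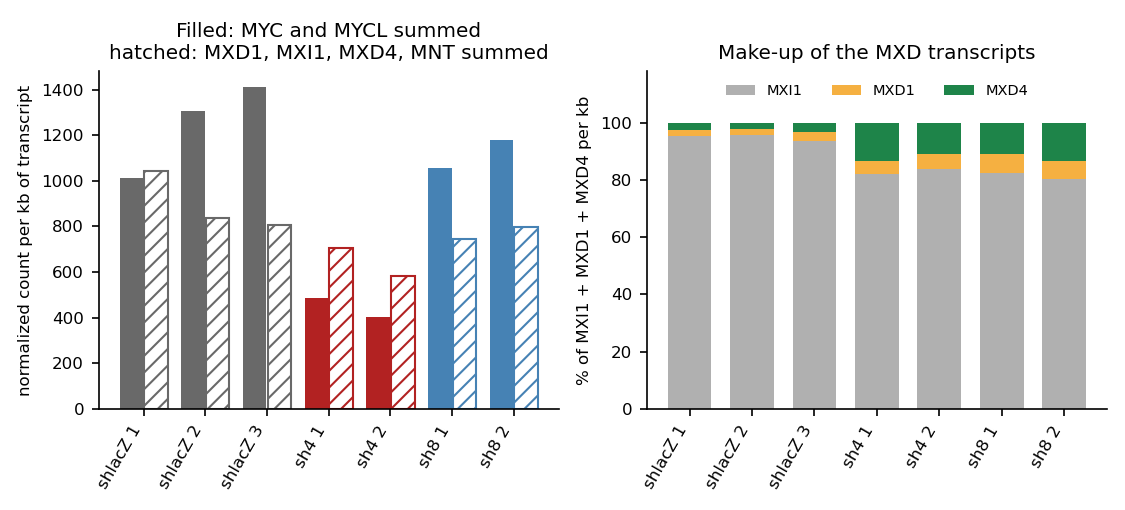
Left, normalized counts per kilobase of the canonical transcript summed over MYC and MYCL (filled bars) and over MXD1, MXI1, MXD4 and MNT (hatched bars) in each library, on a linear axis from 0. Right, the percentage of the MXI1, MXD1 and MXD4 transcripts per kilobase due to each gene, with MXD3 left out. The hatched bar is the taller in both sh4 libraries and, by little, in shlacZ 1, and the MXD4 share grows from at most 3.30% in shlacZ to at least 10.9% with either hairpin.

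Genes that MYC is known to raise were lower with sh4. The list of such targets held 60 genes chosen from general knowledge, but with earlier results of these data known. Its counts are therefore a description and not an independent test. Of the 60, 58 were in the table and all 58 were tested. With sh4 37 passed as lower and 1 as higher, beside 11.9% and 10.5% of all genes. The median log2 difference was -0.70 against -0.01 over all genes tested. Of the 58, 56 had a value below 0, beside 7797 of all 15420 genes. With sh8 2 passed as lower and none as higher, beside 1.54% and 1.38% of all genes. The median with sh8 was -0.34, and 54 values were below 0, beside 7889 of all 15420 genes. Without shlacZ 1 these counts of lower targets rose to 29 with sh8 and to 51 with sh4. Calls over all genes, in either direction, rose with the same omission, from 451 to 1600 with sh8 and from 3464 to 4865 with sh4. More calls without shlacZ 1 were thus also seen over all genes, and whether the rise was larger among these targets was not tested. The sh4 count also depended on sh4 1 and on sh4 2. MYC itself was -0.30 with sh8 without shlacZ 1 (adjusted p = 0.151). With both hairpins together 9 passed as lower, beside 2.06% of all genes. This count ran from 0 (without shlacZ 2 or shlacZ 3) to 21 (without sh8 1). In those 3 fits 64, 88 and 1144 genes passed in all, against 711 with all libraries.

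RCC1, the nucleotide exchange factor of the GTPase RAN, had 1454, 2114 and 1892 normalized counts in shlacZ, 460 and 463 with sh4, and 1387 and 1280 with sh8. It was the lowest of the targets with sh4 (-1.96, SE 0.16, adjusted p = 9.30e-05), below all other libraries in both. TERT, the catalytic subunit of telomerase, had 666, 633 and 578 in shlacZ, 216 and 163 with sh4, and 430 and 286 with sh8, and it fell with sh4 by 1.73 (adjusted p = 0.000485). PAICS, an enzyme of purine synthesis, had the smallest fall with sh4 that passed (-0.43, adjusted p = 0.0381), and this call was lost in 10 of 17 alternative fits (adjusted p from 0.0530 to 0.245).

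SLC1A5, a glutamine carrier, went against the list. It had 1147, 2536 and 2603 normalized counts in shlacZ, 5120 and 7373 with sh4, and 2437 and 3401 with sh8. The sh4 libraries lay above all others, and the first control lay far below the other controls. SLC1A5 rose with sh4 by 1.65 (SE 0.33, adjusted p = 0.00638), and did not pass without sh4 2 (adjusted p = 0.0790).

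The targets that passed as lower with both hairpins were PPAT and SLC7A5. SLC7A5, a carrier of large neutral amino acids, had 3958, 6044 and 4870 normalized counts in shlacZ, 2153 and 2518 with sh4, and 2756 and 2428 with sh8, a fall of 1.07 with sh4 (adjusted p = 0.00227) and of 0.92 with sh8 (adjusted p = 0.0226). The sh8 call of SLC7A5 was lost in 5 of 17 alternative fits, those without shlacZ 2, shlacZ 3, sh8 1 or sh8 2 and that without the variance trend (adjusted p from 0.0571 to 0.205). PPAT, the first enzyme of purine synthesis, had 1845, 2116 and 2204 in shlacZ, 1136 and 1316 with sh4, and 725 and 860 with sh8, a fall of 0.74 with sh4 (adjusted p = 0.00451) and of 1.37 with sh8 (adjusted p = 0.00117), the latter in all 17 alternatives and the former in all but that without sh4 1 (adjusted p = 0.0539). Both genes lay below all controls in every knockdown library, and PPAT was lowest with sh8, the hairpin with which MYC did not pass.

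Between the hairpins, 52 of the 58 targets had a lower value with sh4 than with sh8, beside 7915 of all 15420 genes. Of the 58, 4 passed as lower in sh4 (RCC1, SLC19A1, IMPDH2 and TERT) and 1, PPAT, as higher, beside 3.33% and 3.67% of all genes. RCC1 was lower by -1.53 (adjusted p = 0.00183). SLC19A1, a folate carrier, had 383, 549 and 438 normalized counts in shlacZ, 167 and 180 with sh4, and 386 and 387 with sh8, and was lower by -1.15 (adjusted p = 0.00817). IMPDH2, an enzyme of guanine nucleotide synthesis, was lower by -0.80 (adjusted p = 0.0139). TERT, which the rule for naming genes did not select in this comparison and which was added after its values were seen, was lower by -0.90 (adjusted p = 0.0398). PPAT was higher in sh4 by 0.63 (adjusted p = 0.0349). Of 17 alternative fits, the call of RCC1 was lost in 0, that of SLC19A1 in 4 (adjusted p up to 0.0740), of IMPDH2 in 5 (up to 0.107), of PPAT in 7 (up to 0.233) and of TERT in 8 (up to 0.264). Leaving out shlacZ 1 raised the count of targets lower in sh4 to 10, and calls over all genes from 1079 to 1975. The count also depended on single sh4 and sh8 libraries.

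The E-box stood in the promoters of 21 of the 50 targets with a RefSeq promoter (42.0%), and in 16 of the 33 such targets that passed as lower with sh4 (48.5%), beside the 10.1% of tested genes given above. Targets on such lists were partly found through their E-boxes, so this share describes the list. The 4 windows printed are those of the targets with a mean of at least 1000 normalized counts, an E-box before the start and the lowest values with sh4, a choice made after the values were seen. All lie on the minus strand of GRCh38.p14, SLC7A5 at chr16:87869620-87869649, SRM at chr1:11060200-11060229, HSPD1 at chr2:197500345-197500374 and PPAT at chr4:56435780-56435809. The PPAT window also lies inside the annotated span of PAICS, and the HSPD1 window inside that of HSPE1, both on the plus strand. The HSPD1 window is before the RefSeq start but within the longest GENCODE span of HSPD1.
SLC7A5: ggccggacgacgCACGTGctccgagctggg
SRM: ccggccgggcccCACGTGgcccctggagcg
HSPD1: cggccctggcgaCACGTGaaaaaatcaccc
PPAT: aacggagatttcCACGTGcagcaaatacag
SRM, the enzyme that makes spermidine, had a log2 difference with sh4 of -1.05 (adjusted p = 0.0112; 0.112 without sh4 1 and 0.0540 without the variance trend), and HSPD1, a mitochondrial chaperonin, of -0.92 (adjusted p = 0.00275). MXD4, whose window carries the same 6 letters, rose with both hairpins.

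**Figure D4:**
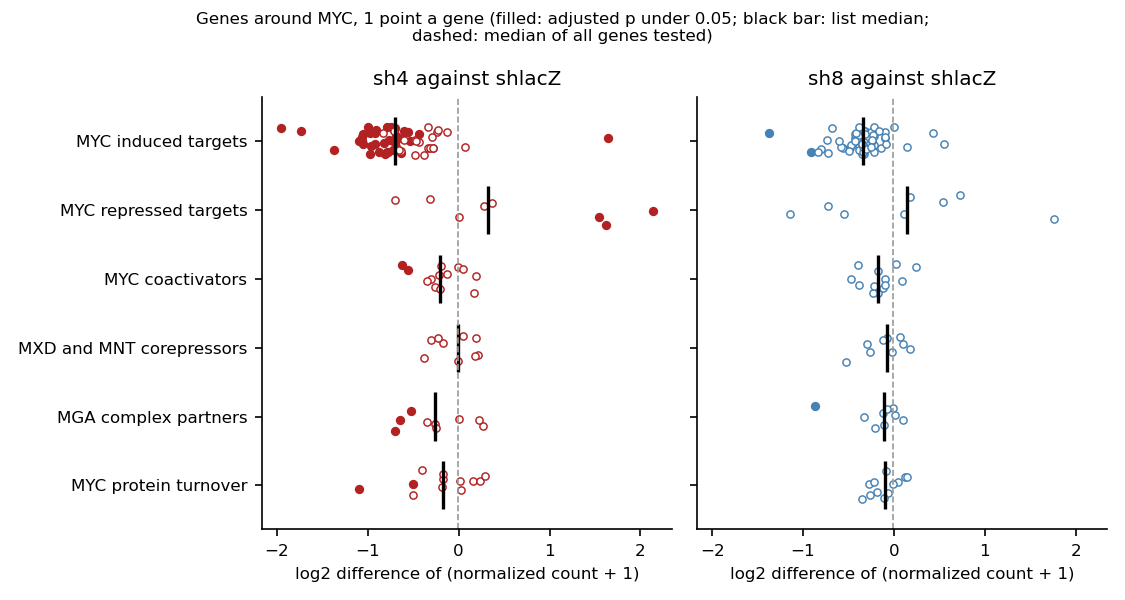
Difference in log2(normalized count + 1) for each tested gene of 6 lists around MYC, with sh4 (left) and sh8 (right) against shlacZ. Each point is a gene, filled where the adjusted p was under 0.05, black bars mark list medians and the dashed line the median of all genes tested (-0.01 in both). The induced targets sit around -0.70 with sh4 and -0.34 with sh8.

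Genes that MYC is known to lower were fewer. Of 11 listed, 8 were tested, and 3 passed as higher with sh4 and none as lower, beside 10.5% and 11.9% of all genes. The median was 0.32, against -0.01 over all genes tested, with 6 values above 0 and 2 below, beside 7622 and 7797 of all 15420 genes. FTH1 and CDKN1B were at 60.8% and 80.4% of control with sh4 and did not pass. NDRG1, a gene of differentiation and stress, had 94.9, 62.8 and 80.9 normalized counts in shlacZ, 229 and 258 with sh4, and 89.6 and 146 with sh8, and it rose with sh4 by 1.62 (adjusted p = 0.00257). CDKN2B, an inhibitor of the cyclin D kinases, had 101, 124 and 222 in shlacZ, 355 and 478 with sh4, and 185 and 294 with sh8, and rose by 1.54 (adjusted p = 0.00882; 0.0952 without sh4 2). CDKN1C, a kinase inhibitor below the mean set for named genes and added after its values were seen, rose with sh4 by 2.14 (adjusted p = 0.00649). This call rested on sh4 1, and the value was 1.78 without it. CDKN1C had 26.8, 10.5 and 12.2 normalized counts in shlacZ, 90.3 and 54.5 with sh4, and 51.4 and 56.4 with sh8. It thus lay above all controls with sh8 as well, at 327% of control. With sh8 no gene of this list passed by limma or by limma-voom. By limma 3 of the 8 had an unadjusted p under 0.05, and the median was 0.15. In both hairpins together 1 gene of the list passed as higher, beside 2.55% of all genes. GADD45A, a stress gene, passed as higher in sh4 than in sh8 (1.08, adjusted p = 0.0268) from values of -0.72 with sh8 and 0.36 with sh4, neither of which passed, and the call was lost in 5 of 17 alternative fits (adjusted p up to 0.227).

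Of 13 coactivators of MYC, 2 passed as lower with sh4 and none as higher, beside 11.9% of all genes lower, the paired ATPases RUVBL2 (-0.62, adjusted p = 0.0305) and RUVBL1 (-0.56, adjusted p = 0.0288). Each call was lost in 5 of 17 alternative fits, those without shlacZ 2, shlacZ 3, sh4 1 or sh4 2 and that without the variance trend (adjusted p from 0.0736 to 0.203). None passed with sh8 by limma (3 at an unadjusted p under 0.05) or by limma-voom. Of 9 corepressors that MXD proteins and MNT recruit, none passed with either hairpin by limma (2 at an unadjusted p under 0.05 with each) or by limma-voom, with medians of -0.01 with sh4 and -0.08 with sh8. SUDS3, a subunit of the SIN3 complex, was higher in sh4 than in sh8 (0.52, adjusted p = 0.0494), a call lost in 11 of 17 alternative fits (adjusted p from 0.0501 to 0.289).

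Of 9 partners of MGA in its polycomb complex, 3 passed as lower with sh4, again beside 11.9% of all genes. RNF2, its ubiquitin ligase, fell by 0.70 (adjusted p = 0.00367), PCGF6, its defining subunit, by 0.64 (adjusted p = 0.0234) and TFDP1, the partner of E2F6, by 0.52 (adjusted p = 0.0309). Of 17 alternative fits the call of RNF2 was lost in 0, that of PCGF6 in 5 (adjusted p from 0.0502 to 0.126) and that of TFDP1 in 6 (from 0.0518 to 0.196). With sh8 only RYBP of this list passed (-0.86, adjusted p = 0.0210). It had 754, 851 and 976 normalized counts in shlacZ, 765 and 967 with sh4, and 448 and 493 with sh8, and it was higher in sh4 than in sh8 by 0.87 (adjusted p = 0.0165). These calls of RYBP were lost in 5 (adjusted p up to 0.157) and 4 (up to 0.161) of 17 alternative fits. RNF2 was lower in sh4 than in sh8 by -0.69 (adjusted p = 0.0152), a call lost in 5 of them (up to 0.0987).

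Of 12 genes that act on the stability of the MYC protein, 2 passed as lower with sh4, beside 11.9% of all genes, and none with sh8 by limma or limma-voom, where 0 had an unadjusted p under 0.05. SKP2, a ubiquitin ligase subunit that acts on MYC and is needed in S phase, had 2901, 3672 and 3518 normalized counts in shlacZ, 1494 and 1631 with sh4, and 3015 and 2877 with sh8. Both sh4 libraries lay below all others, with a fall of 1.10 (adjusted p = 0.000489) and a difference between the hairpins of -0.92 (adjusted p = 0.00589; 0.0523 without sh4 2 and 0.0605 without sh8 1). CIP2A, which protects MYC from a phosphatase, fell with sh4 by 0.50 (adjusted p = 0.0338), a call lost in 8 of 17 alternative fits (adjusted p from 0.0533 to 0.273).

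Of 16 listed neighbours of MYC on chromosome 8, 7 were tested, and 1 of them passed with sh4, beside 22.5% of all genes. It was ASAP1, an adaptor of the cell cortex (-0.72, adjusted p = 0.00172). ASAP1 was also lower in sh4 than in sh8 (-0.67, adjusted p = 0.0101), a call lost in 3 of 17 alternative fits. PVT1, the long non-coding RNA next to MYC, had 1187, 867 and 755 normalized counts in shlacZ, 730 and 645 with sh4, and 1101 and 860 with sh8, and did not pass with sh4 (-0.42, adjusted p = 0.151) or sh8 (0.08, adjusted p = 0.867). The median of the 7 genes with sh4 was -0.22.

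The genes most like MYC were described by the Pearson correlation of log2 values over the 7 libraries, which share depth and hairpin, among 11438 genes with a symbol and a mean of at least 50. The highest were GJC1 (r = 0.996), TMTC4 (0.995), TDRD7 (0.995), ZNF518B (0.993) and ZCCHC2 (0.993), and the lowest FAM172A (-0.997), PPP1R21 (-0.993) and LINC01060 (-0.990). GJC1, a gap junction protein, had 1765, 1954 and 2217 normalized counts in shlacZ, 937 and 839 with sh4, and 1710 and 1826 with sh8. Among the members r with MYC was 0.955 for MGA, 0.947 for MAX, 0.728 for MXI1, 0.661 for MLX, 0.209 for MYCL, 0.0156 for MXD1, -0.442 for MXD4 and -0.457 for MNT. With 7 libraries in 3 groups, such values mostly state which genes set sh4 apart from the other libraries.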

How the data were processed

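Total RNA of 501Mel cells was depleted of ribosomal RNA and sequenced as stranded libraries. According to the methods and the submitters' processing notes, the authors trimmed reads with Cutadapt, aligned them to hg38 with STAR, quantified genes with Salmon and passed counts to DESeq2. Versions, the annotation release and the strand setting were not given in the sources used here. The authors deposited 1 table of normalized counts (counts divided by 1 size factor per library), the only values used. Each value was a whole multiple of 1 read (tolerance 0.1), so reads were recovered for depth and for 1 alternative, and intervals for low genes are limited by counting. The size factors scale away a change shared by most genes.

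Genes with a mean of at least 10 were tested with limma (version 3.58.1, R 4.3.3) on log2(normalized count + 1) with a variance trend, two-sided. 1 fit with 3 groups gave each hairpin against shlacZ and sh4 against sh8, and a fit with 2 levels gave both hairpins together. The fit was tested on simulated data. Named were all members, and from each list at most the 2 highest and 2 lowest genes that passed a comparison with a mean of at least 50, every gene of lists of 3 or fewer, PVT1, GRASLND, and the 5 highest and 3 lowest correlations with MYC. The members and lists were chosen with earlier results of these data known. Positions come from GENCODE release 44 on hg38 and promoters from RefSeq. Alternatives covered the pseudocount, the minimum mean, the scaling, the variance trend, the replicate block, limma-voom on recovered reads, the groups fitted, the fold threshold, transcript lengths and leaving out each library. DESeq2 was not run, because the values were not declared as counts.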

Additional observations from a re-analysis of the deposited data

Results flagged for a closer look

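The effect of the 2 hairpins differed by a test of sh4 against sh8 itself (limma, adjusted p under 0.05) for 1 member and 11 genes of the lists. Over all genes 7.0% passed this test, so such differences are not particular to genes around MYC. The pigment-cell markers, of which 8 of 12 passed as lower in sh4, are not counted here. For MYC the difference was -1.36 on the log2 scale. Lower with sh4 than with sh8 were also RCC1 (-1.53), SLC19A1 (-1.15), SKP2 (-0.92), TERT (-0.90), IMPDH2 (-0.80), RNF2 (-0.69) and ASAP1 (-0.67). Higher with sh4 were GADD45A (1.08), RYBP (0.87), PPAT (0.63) and SUDS3 (0.52). These 12 genes share the same 4 libraries. Of 17 alternative fits the calls of MYC and RCC1 were lost in 0, that of SKP2 in 2, ASAP1 in 3, SLC19A1 and RYBP in 4, IMPDH2, RNF2 and GADD45A in 5, PPAT in 7, TERT in 8 and SUDS3 in 11. The groups of 3 and 2 libraries were too small for a check of single outlying libraries.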

How the results depend on the processing

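MYC kept its fall with sh4, and its lower level in sh4 than in sh8, past the threshold under every alternative, with ranges of -1.66 to -1.37 and -1.50 to -1.22 over the fits without 1 library. Members that passed ranged over those fits from 2 to 5 with sh4, 0 to 2 with sh8, 1 to 3 between the hairpins and 0 to 2 in both together, and induced targets passing as lower from 10 to 51, 1 to 29, 1 to 10 and 0 to 21. Calls over all genes moved too, and without shlacZ 1 numbered 4865 with sh4 and 1600 with sh8, against 3464 and 451 with all libraries. GRASLND ranged from -1.23 to -0.82 with sh4 and from -0.99 to -0.73 in both together. Where a fit left an arm with 1 library, that library was assumed to vary like the other groups.

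A log2 difference over 1 as well left 2 members with sh4 and 1 in both together, and 8, 1, 2 and 2 induced targets in the order above. Without the variance trend 0 members passed with sh8 and 1 in both together, induced targets numbered 21, 1, 2 and 0, and GRASLND in both together was -0.85 with an adjusted p of 0.0805. All genes that passed then numbered 2500, 59, 476 and 138, against 3464, 451, 1079 and 711. Quantile normalization gave 3 members and 7 induced targets between the hairpins and 1 member in both together. Fitting only the 2 groups compared gave 1 member with sh8 (299 genes in all), and 2 members and 8 induced targets between the hairpins. Scaling to the same total gave 1 member in both together. The mean of both hairpins in the fit with 3 groups gave 4 members, 29 induced targets and 2534 genes, with MYC at -0.83 and an adjusted p of 0.00366. With merged exon lengths the activator to repressor balance with sh4 was 0.717, and the ratio of MYC to MAX per kilobase was 3.67 in shlacZ, 1.86 with sh4 and 3.45 with sh8, against 1.93, 0.983 and 1.82 by canonical length.

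Signs turned only for members that did not pass. When scaled to the same total, MYCL with sh4 was 0.028, MNT between the hairpins 0.047 and MLX in both together 0.034, and MLX in both together was 0.022 by quantile normalization. Over the fits without 1 library, MYCL ranged from -0.31 to 0.12 with sh4 and from -0.071 to 0.37 in both together, MNT from -0.15 to 0.085 between the hairpins, and MLX from -0.0082 to 0.20 with sh8 and from -0.15 to 0.057 in both together. Except where the alternative itself removes libraries or raises the threshold, the cause was not tested.

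The labels do not say whether same-numbered libraries of different groups were prepared together. The correlation of deviations of same-numbered libraries ranged from -0.0781 to 0.337, and not every pair was over 0.1. Between shlacZ and sh4 it was 0.337 for replicate 1 and 0.213 for replicate 2, and whether these share a replicate effect was not tested. Deviations were taken from group means, so those of 2 libraries of a group mirror each other. The values for replicates 1 and 2 are therefore not separate observations. With the replicate block 0 members, 0 induced targets and 42 genes passed in both hairpins together, 4 induced targets passed with sh8, GRASLND was -0.90 (adjusted p = 0.150), and MLX in both together was 0.057. The lowest read count of a member in a library was 41.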

Other observations

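The genes TXNIP and ARRDC4, which MLX raises together with MLXIP when glucose is plentiful, were uneven between replicates. TXNIP had 422, 190 and 214 normalized counts in shlacZ, 714 and 343 with sh4, and 265 and 447 with sh8, and did not pass (0.94, limma adjusted p = 0.114, with sh4, and 0.42, adjusted p = 0.617, with sh8). ARRDC4 did not pass either (0.42, adjusted p = 0.415, and -0.22, adjusted p = 0.787).

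PPAT and PAICS, 2 enzymes of purine synthesis, lie head to head on chromosome 4 with 126 bases between their annotated starts. PAICS had a log2 value of -0.09 with sh8 (adjusted p = 0.751), where PPAT had -1.37 (adjusted p = 0.00117), and the difference of these values was not tested.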
